A study of Mus musculus with 22 samples.

Results

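The genes Trmt10a, Thoc6, Polk, Lysmd1, Ttc41, Gm5113, Grk4, Trappc3, Lrrc51 and Smim11, gave higher RNA signals in mouse hearts that lost the transcription factor Ronin, and they are described here across all samples. They were chosen because their intensities were higher in knockouts in 1 or several of the comparisons below, so the fold changes of these 10 genes out of 19057 on the array are given as a description and without a test. The genes are read by 20 probes out of 45281. A gene is read by its brightest probe, averaged across arrays and called its leading probe, and 5 genes have only 1 probe.

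Illumina MouseWG-6 v2.0 BeadArrays were used to read the heart RNA of C57BL/6 mice, where a probe's intensity stands for the amount of a transcript, in 22 arrays of 10 groups. Ronin (Thap11) was deleted with Nkx2.5::Cre, which acts in cardiac progenitors, in hearts taken at E9.5 (2 control and 2 knockout arrays, each a pool of 10 hearts) and at E11.5 (3 and 3). It was deleted with MHC::Cre, driven by the alpha-myosin heavy chain promoter of cardiac myocytes, in hearts taken at E11.5, at P0 (the day of birth) and at 6 weeks (2 and 2 each). The controls were Nkx2.5::Cre, RoninloxP/+ or MHC::Cre; RoninloxP/+ and the knockouts RoninloxP/loxP, so every animal carried Cre and the controls had 1 floxed allele. The genotype field of the MHC knockouts reads Nkx2.5::Cre, whereas their titles and source give MHC::Cre, which was followed. Whole hearts also hold cells in which neither Cre acts, and fewer cells of a type and less RNA per cell cannot be told apart in such samples.

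Ronin is a DNA-binding protein of the THAP zinc finger family that works with the cofactor Hcf-1 near the start sites of genes, many of which serve metabolism and protein synthesis. The 10 genes belong to no single pathway. Trmt10a methylates guanosine in transfer RNA, and Thoc6 is a subunit of the THO complex, which packages messenger RNA for export from the nucleus. Polk is DNA polymerase kappa, an enzyme of translesion synthesis that copies past damaged bases. Grk4 is a kinase of G protein-coupled receptors, Trappc3 is a core subunit of the TRAPP complexes that tether vesicles, and Smim11 is a small membrane protein. Lysmd1, Lrrc51 and Ttc41 are named for a LysM domain, leucine-rich repeats and tetratricopeptide repeats. Gm5113 is annotated as a long noncoding RNA by RefSeq.

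The promoter sequences of the genes were searched for the motif that the study associates with Ronin binding, because this is a property that the choice of genes did not use. RefSeq windows (GRCm38.p6) from 250 bases before to 50 bases after the start were present for all 10 genes. The full Ronin motif, on either strand, was found for 3 of the 10 genes, Grk4, Gm5113 and Smim11, and for 705 of 27025 genes with a window (2.61%). A shorter string, TGTAGT on either strand, which the full motif allows as its end, was found in 4 of the 10 genes, with Trappc3 as the fourth, and in 11.8% of all genes. With at most 1 mismatch to the full motif, 6 of the 10 genes had a match, Trmt10a and Lysmd1 among them, against 10.1% of all genes. Thoc6, Polk, Ttc41 and Lrrc51 had none at that tolerance. The only windows of Ttc41 and Lrrc51 lie inside the annotated spans given below, with starts at 86712765 and 101921225, so the outer ends of these 2 genes were not searched. The window of Thap11 itself held 1 full match. These matches describe letters in a window and do not show binding.

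The 3 windows with a full match are shown in the direction of the gene, 5′ to 3′, with the bases of the motif in capitals. That of Grk4 (chr5:34660129-34660428, plus strand) holds 2 full matches, that of Gm5113 (chr7:30169625-30169924, plus strand) 1, and that of Smim11 (chr16:92301053-92301352, plus strand) 1.
Grk4 promoter: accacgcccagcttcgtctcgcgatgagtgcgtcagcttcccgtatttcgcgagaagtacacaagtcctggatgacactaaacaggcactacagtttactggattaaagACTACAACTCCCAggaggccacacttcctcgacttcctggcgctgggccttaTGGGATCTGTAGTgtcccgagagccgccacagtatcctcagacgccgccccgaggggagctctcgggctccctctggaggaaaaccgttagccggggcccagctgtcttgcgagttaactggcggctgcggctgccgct
Gm5113 promoter: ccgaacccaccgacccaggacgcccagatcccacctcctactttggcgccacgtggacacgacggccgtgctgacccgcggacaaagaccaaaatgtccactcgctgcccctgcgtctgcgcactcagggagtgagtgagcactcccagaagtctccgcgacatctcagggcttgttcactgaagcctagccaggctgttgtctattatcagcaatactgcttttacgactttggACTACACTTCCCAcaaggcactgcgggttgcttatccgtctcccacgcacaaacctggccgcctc
Smim11 promoter: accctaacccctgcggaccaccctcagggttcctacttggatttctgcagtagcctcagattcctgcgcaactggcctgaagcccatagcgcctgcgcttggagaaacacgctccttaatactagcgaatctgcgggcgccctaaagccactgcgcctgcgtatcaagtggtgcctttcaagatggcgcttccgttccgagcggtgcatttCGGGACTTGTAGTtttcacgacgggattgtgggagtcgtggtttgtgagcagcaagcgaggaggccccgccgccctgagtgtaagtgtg

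The motif that was searched fixes TAGT as its closing bases and allows only C or T, then A or G, before them. Read along the strand of the motif, the 4 matches share their last 6 bases, given here in capitals, and most of this sharing follows from the search.
Grk4 distal site: tgggagtTGTAGT
Grk4 proximal site: tgggatcTGTAGT
Gm5113 site: tgggaagTGTAGT
Smim11 site: cgggactTGTAGT
The Grk4 sites begin 141 bases (minus strand) and 89 bases (plus strand) before the start, the Gm5113 site 15 bases before it (minus strand) and the Smim11 site 39 bases before it (plus strand). Grk4 had a further TGTAGT on the minus strand 163 bases before the start, and Trappc3 had one on the plus strand 99 bases before its start. Among the starts that have a window, 4 of the 10 genes lay within 1000 bases of the start of a protein-coding gene read away from them on the other strand, against 8.54% of all 27025 genes. Scnm1, beside Lysmd1, was not part of this count. The distance between the starts was 30 bases for Trmt10a and Mttp, 134 for Gm5113 and Zfp146, 156 for Polk and Cert1, and 231 for Grk4 and Nop14. The windows of Zfp146 and Nop14 overlap those of their partners and hold 1 and 2 of the full matches. The window of Cert1, beside Polk, held 1 full match.

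Before the genes are described, the labels were checked. As a percentage of the control mean, Thap11 intensity was 86.4 and 53.8 in the E9.5 Nkx2.5 knockouts and 66.1, 72.5 and 50.9 in those of E11.5. The MHC knockouts had 59.3 and 88.2 (E11.5), 78.8 and 71.6 (P0) and 20.0 and 53.4 (6 weeks). All 11 knockout arrays were therefore below their controls, although the limma fit called Thap11 lower only in MHC hearts at 6 weeks (log2 fold change -1.61, adjusted p = 0.041), with adjusted p from 0.48 to 1 elsewhere. A probe was present for 9 of the 10 cardiomyocyte markers, and all 9 lay above the median probe in every comparison. Sex was not balanced, and the 10 genes are all on autosomes. For the MHC comparison at E11.5, Xist, expressed from the inactive X chromosome of females, read 1890 and 1990 in the controls and 49.9 and 54.9 in the knockouts, so that sex and knockout cannot be told apart there. Under Nkx2.5::Cre at E11.5 it read 659, 1020 and 47.0 in controls and 695, 40.1 and 36.7 in knockouts, and its part in the values below was not tested.

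The 10 genes all had higher mean log2 intensities in the Nkx2.5 knockouts at both ages and in MHC knockouts at E11.5, and 9 of 10 did at P0 and at 6 weeks, with Smim11 as the exception. Every leading probe lay above the median probe in all 5 comparisons, so none of the 10 was lost to the filter on dim probes. The knockout arrays lay above all control arrays for 10 of 10 genes in the E9.5 Nkx2.5 comparison, beside 15.9% of the 11713 genes tested. The same held for 10 of 10 in the E11.5 Nkx2.5 comparison, beside 4.14%. For MHC hearts it held for 6 of 10 in the embryo at E11.5 (14.7% of all genes), 7 of 10 in newborns (14.6%) and 8 of 10 in adults (19.6%). The genes apart in all 5 comparisons were Trmt10a, Thoc6, Polk and Trappc3, beside 0.162% of 9896 genes, and 9 of 10 had a log2 fold change above 0 in all 5, beside 4.66%. Since the genes were chosen on these comparisons, nothing is read from the contrast with the background. Their median log2 fold change was 0.71 (E9.5) and 0.53 (E11.5) with Nkx2.5::Cre, and 0.13 (E11.5), 0.38 (P0) and 0.74 (6 weeks) with MHC::Cre. Over all genes tested, the medians lay between -0.02 and 0.02. The value of 0.13 in MHC hearts at E11.5 was 0.24 without knockout array 2, that of 0.38 at P0 was 0.235 without control array 2, and that of 0.74 at 6 weeks was 0.38 when the probes of a gene were averaged.

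**Figure D1:**
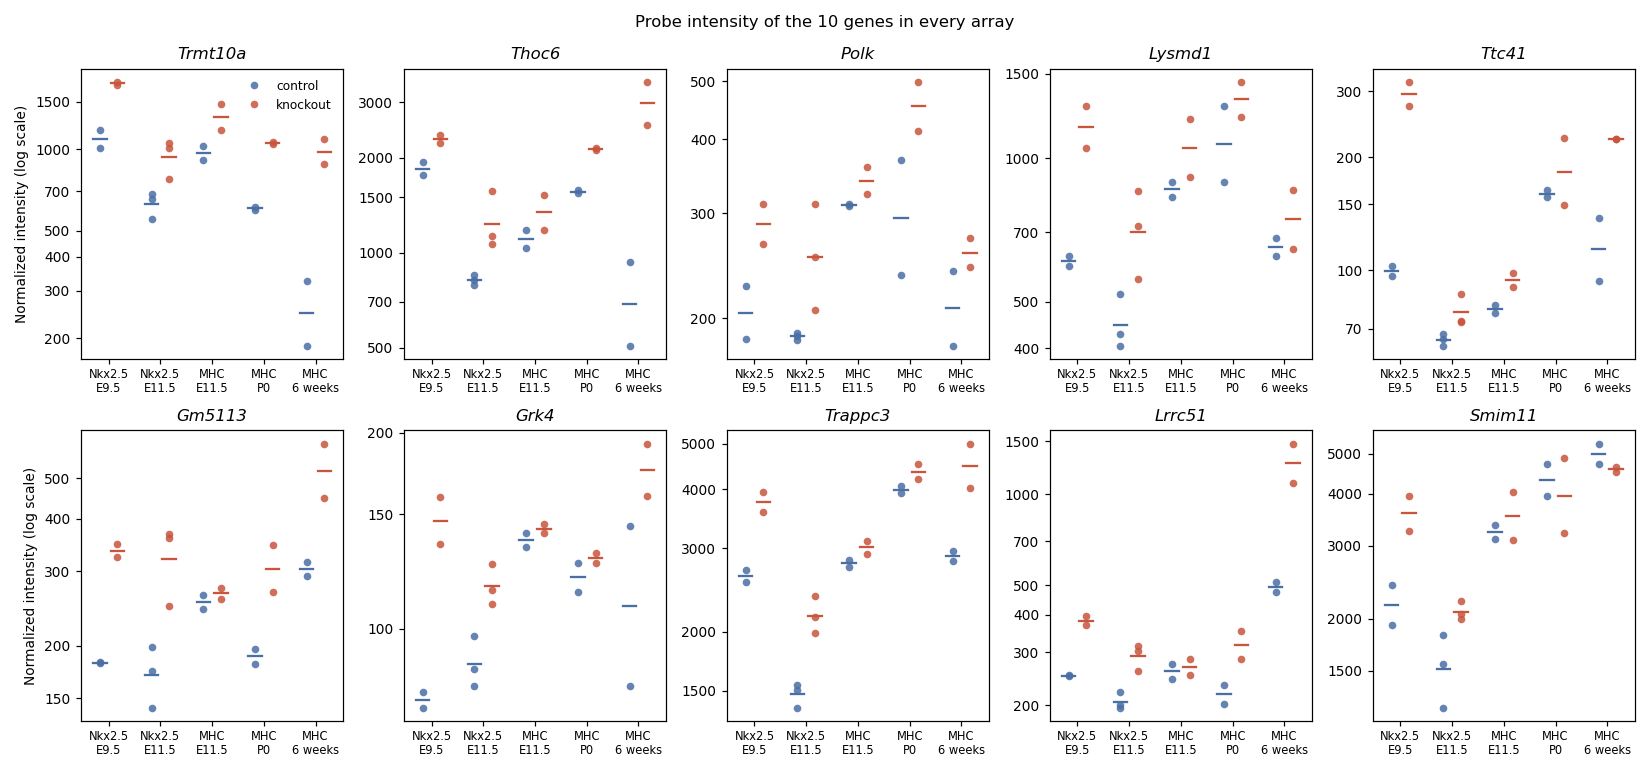
Normalized probe intensity (log axis) of each of the 10 genes in all 22 arrays, by comparison, with controls in blue and knockouts in red; points are arrays and bars the mean of log2 values. In the Nkx2.5 comparisons the 2 groups are apart for all 10 genes, while in MHC hearts at E11.5 they overlap for 4.

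Trmt10a, the transfer RNA methyltransferase (chr3:138143448-138159821), was apart from its controls in all 5 comparisons. The E9.5 controls had intensities of 1012 and 1182 and the knockouts 1777 and 1728 (log2 fold change 0.68 ± 0.15 SE). At E11.5 the controls read 554, 681 and 655 and the knockouts 1008, 776 and 1053 (1.49-fold, log2 0.58 ± 0.19 SE). The lowest knockout array, replicate 2, was the one closest to the controls. Under MHC::Cre the E11.5 controls read 916 and 1032 against 1467 and 1183 (1.36-fold), and the P0 controls 613 and 595 against 1049 and 1063 (1.75-fold). At 6 weeks the controls read 188 and 326 and the knockouts 1093 and 878, a 3.96-fold difference (log2 1.99 ± 0.27 SE) that was the 10th highest of 11708 genes. Both adult knockouts exceeded the higher control by more than the controls differed from each other. The log2 value of 0.44 in MHC hearts at E11.5 was 0.28 without knockout array 1.

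Thoc6, of the THO complex (chr17:23668618-23673917), was also apart in all 5 comparisons. It read 1934 and 1765 in controls and 2227 and 2365 in knockouts of Nkx2.5 hearts at E9.5 (1.24-fold, log2 0.31 ± 0.16 SE), the smallest difference of the 10 genes there. With 3 arrays a group at E11.5, it read 850, 817 and 788 in controls and 1126, 1066 and 1565 in knockouts (1.51-fold). Knockout array 3, which had the least Thap11, was the highest. Under MHC::Cre at E11.5 the groups were barely apart, with 1177 and 1032 in controls and 1528 and 1183 in knockouts, and the log2 fold change of 0.29 ± 0.15 SE was 0.10 without knockout array 1 and 0.47 without knockout array 2. At P0 the values were 1541 and 1581 against 2147 and 2116 (1.37-fold). At 6 weeks they were 508 and 937 against 3479 and 2544, a 4.31-fold difference (log2 2.11 ± 0.28 SE), the 9th highest of all genes tested and the highest of the 10.

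Polk, the translesion polymerase (chr13:96480687-96542579), was apart in all 5 comparisons. At E9.5 the controls read 226 and 185 and the knockouts 267 and 311 (1.41-fold, log2 0.50 ± 0.16 SE). At E11.5 the 3 controls lay close together at 189, 187 and 184, while the knockouts were spread over 311, 254 and 206 (log2 0.44 ± 0.20 SE). Without knockout array 1 the latter value was 0.29. The MHC values at E11.5 were 308 and 311 against 323 and 358 (1.10-fold), and the log2 value of 0.14 ± 0.15 SE was 0.21 without knockout array 1 and 0.06 without knockout array 2. At P0 the controls differed from each other, at 369 and 236, by more than the nearest knockout differed from them (412 and 499 in knockouts, log2 0.62 ± 0.22 SE), and the value was 0.94 without control array 1 and 0.30 without control array 2. At 6 weeks control array 2 (241) almost reached knockout array 1 (244), with 180.0 and 273 for the other two, and the log2 value of 0.31 ± 0.29 SE was 0.10 without control array 1 and 0.52 without control array 2.

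Among the genes of signaling and traffic, Grk4 (chr5:34660250-34755305) was apart in 4 comparisons. It read 75.8 and 80.1 in controls and 135 and 160 in knockouts at E9.5 (1.88-fold, log2 0.91 ± 0.13 SE), the 3rd highest difference of 11713 genes. The E11.5 Nkx2.5 arrays read 97.6, 81.6 and 86.8 in controls and 126, 115 and 109 in knockouts (1.32-fold). The groups overlapped under MHC::Cre at E11.5, with 140.4 and 134 in controls and 145 and 140.3 in knockouts. At P0 the highest control and the lowest knockout both read 126, the other control 114 and the other knockout 131, so that the log2 value of 0.10 was 0.03 without control array 1 and 0.17 without control array 2. At 6 weeks the controls read 81.8 and 144 and the knockouts 160.2 and 193 (1.62-fold). This log2 value of 0.69 ± 0.23 SE rested on the spread of the controls, being 0.29 without control array 1 and 1.10 without control array 2.

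Trappc3, of the vesicle tethering complexes (chr4:126262405-126275883), was apart in all 5 comparisons by its leading probe, with little spread. Under Nkx2.5::Cre it read 2544 and 2699 in controls against 3586 and 3955 in knockouts at E9.5 (1.44-fold, log2 0.52 ± 0.09 SE). At E11.5 it read 1503, 1381 and 1544 against 2144, 1982 and 2378 (1.47-fold, log2 0.55 ± 0.12 SE). In both, the gap between the groups was wider than the range within either of them. The MHC differences before and at birth were small, with 2745 and 2831 against 3112 and 2919 at E11.5 (1.08-fold) and 3923 and 4070 against 4199 and 4518 at P0 (1.09-fold). The log2 values of 0.11 and 0.12 were both 0.07 without knockout array 1 at E11.5 and without knockout array 2 at P0. At 6 weeks it read 2956 and 2819 against 4999 and 4021 (1.55-fold, log2 0.64 ± 0.17 SE).

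Smim11, the small membrane protein (chr16:92301241-92313041), was apart from its controls in both Nkx2.5 comparisons. It read 1934 and 2408 in controls and 3263 and 3955 in knockouts at E9.5, a 1.66-fold difference (log2 0.74 ± 0.16 SE). The values at E11.5 were 1828, 1558 and 1222 in controls and 2202, 1994 and 2048 in knockouts (1.37-fold), and the log2 value of 0.46 ± 0.20 SE was 0.30 without control array 3, the lowest. Under MHC::Cre the groups overlapped at E11.5 (3360 and 3119 against 4032 and 3097) and at P0 (3943 and 4727 against 4873 and 3213). At 6 weeks both knockouts, at 4642 and 4516, lay below both controls, at 5284 and 4726 (log2 -0.13 ± 0.29 SE). All tested genes with both knockouts below both controls made up 17.9% there. It was the only pair of the 50 gene and comparison pairs in which the knockouts lay below the controls, while they lay above in 41.

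Lysmd1, with its LysM domain (chr3:95134088-95139525), was apart in the 3 embryonic comparisons. At E9.5 it read 595 and 625 in controls and 1050 and 1284 in knockouts (1.91-fold, log2 0.93 ± 0.16 SE), the 2nd highest difference of 11713 genes. At E11.5 it read 520.1, 405 and 427 in controls and 851, 720.2 and 559 in knockouts (1.56-fold). With MHC::Cre at E11.5 it read 890.1 and 830 against 1204 and 914, and the log2 value of 0.29 ± 0.16 SE was 0.09 without knockout array 1 and 0.49 without knockout array 2. At P0 (1287 and 890.1 against 1444 and 1218) and at 6 weeks (679 and 623 against 859 and 645) the groups overlapped. Of its log2 fold changes, the lowest, 0.20 ± 0.29 SE, was the adult one.

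Lrrc51, with leucine-rich repeats (chr7:101912989-101933918), was apart in 4 comparisons. It read 250.1 and 252 in controls and 369 and 395 in knockouts of Nkx2.5 hearts at E9.5 (1.52-fold, log2 0.61 ± 0.12 SE). The E11.5 values were 197, 222 and 200.2 in controls and 315, 260.2 and 302 in knockouts (1.42-fold). The MHC groups overlapped at E11.5 (245 and 275 against 286 and 252). At P0 it read 203 and 233 against 354 and 285 (1.46-fold). At 6 weeks it read 475 and 511 in controls and 1472 and 1091 in knockouts, a 2.57-fold difference (log2 1.36 ± 0.22 SE), the third in size among the 10 genes after Thoc6 and Trmt10a.

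Ttc41, with tetratricopeptide repeats (chr10:86705811-86776844), had the highest fold change of all 11713 genes tested in Nkx2.5 hearts at E9.5. Its leading probe read 96.9 and 103 in controls and 274 and 318 in knockouts, a 2.96-fold difference (log2 1.57 ± 0.13 SE). Its signal at E11.5 was close to the median probe, at 63.1, 65.7 and 67.6 in controls and 73.0, 73.5 and 86.3 in knockouts (1.18-fold). Under MHC::Cre it read 81.2 and 77.2 against 98.4 and 90.4 at E11.5 (1.19-fold) and overlapped at P0 (164 and 157 against 225 and 149). At 6 weeks it read 94.0 and 138 in controls and 224 and 223 in knockouts (1.96-fold, log2 0.97 ± 0.23 SE). The median probe of an array read 58.2 to 108, and the log2 fold changes of dim probes depend on how the lowest signal is handled. After the lowest value of each array was subtracted and 16 added, the log2 fold change of Ttc41 at E9.5 was 1.75.

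The noncoding Gm5113 (chr7:30169875-30182324) was apart in 4 comparisons. Under Nkx2.5::Cre it read 181 and 183 in controls and 324 and 349 in knockouts at E9.5 (1.85-fold, log2 0.89 ± 0.14 SE), the fourth highest difference of all genes there. At E11.5 the arrays read 199, 143 and 174 against 368, 249 and 361 (1.88-fold, log2 0.91 ± 0.18 SE). It had the largest difference of the 10 genes in that comparison. The MHC groups overlapped at E11.5 (244 and 264 against 259 and 275). They were apart at P0 (181 and 196 against 268 and 346, 1.62-fold) and at 6 weeks (293 and 315 against 604 and 449, 1.71-fold).

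**Figure D2:**
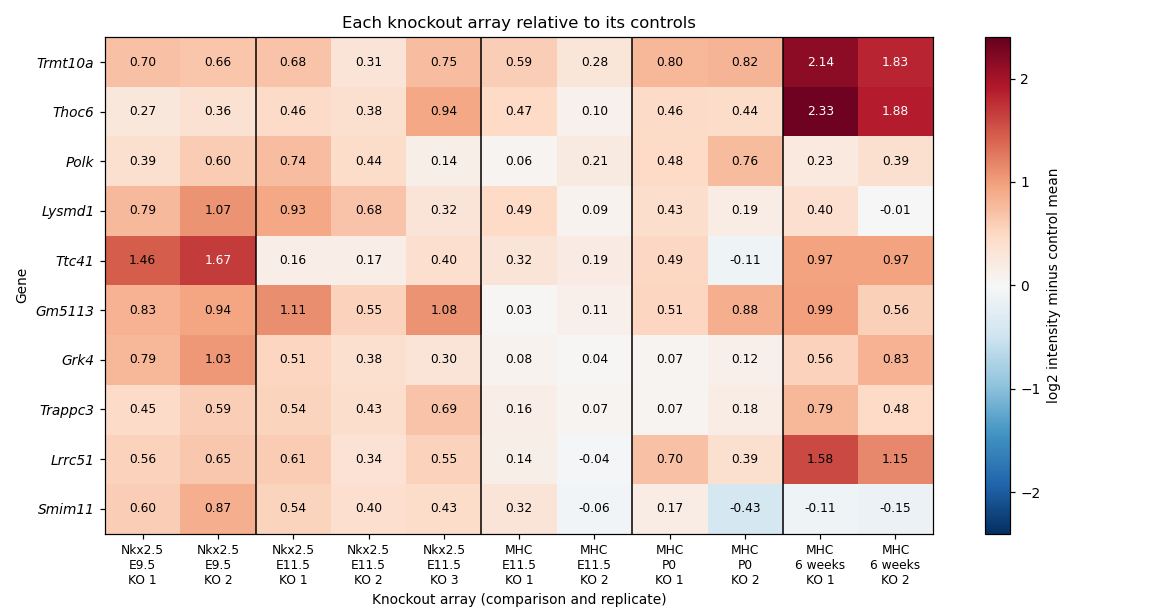
Log2 intensity of each knockout array minus the mean of its controls, for the 10 genes (rows) and the 11 knockout arrays (columns, grouped by comparison). Thoc6 (2.33 and 1.88) and Trmt10a (2.14 and 1.83) have the highest values, both at 6 weeks, and the MHC arrays at E11.5 have the palest column block.

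The other probes of a gene are a second reading of the same RNA on the same arrays. Both Lysmd1 probes gave like values in the embryo, with log2 fold changes of 0.93 and 0.99 at E9.5. At 6 weeks the second Lysmd1 probe was apart from its controls (0.41), while the leading one overlapped (0.20). All 4 Trappc3 probes lay apart from controls in both Nkx2.5 comparisons (0.52 to 0.77 at E9.5 and 0.55 to 0.71 at E11.5). In the MHC comparisons, however, most of the other Trappc3 probes overlapped with controls. At E11.5 they gave 0.015 and 0.19 with overlapping groups and 0.21 apart from controls. At P0 they gave 0.019 and 0.009 with overlapping groups and 0.20 apart from controls. At 6 weeks only the leading Trappc3 probe was apart (0.64), and the other 3 gave 0.27, 0.30 and 0.34 with overlapping groups. Ttc41 showed the widest disagreement. Its 3 probes gave 1.57, 0.81 and 0.62 at E9.5, all apart, whereas at 6 weeks the leading probe gave 0.97 and the other two -0.06 and -0.04. The second Gm5113 probe gave 0.93 and 0.89 in the Nkx2.5 comparisons but 0.06 at 6 weeks, where its leading probe gave 0.78. The remaining Grk4 probes were dimmer, below the median probe at E9.5, where they gave 0.51, 0.13 and -0.03. At 6 weeks 2 of these 3 lay above the median probe and gave 0.44, apart from controls, and 0.39, overlapping, while the third gave -0.01. The adult differences of Ttc41 and Gm5113 thus rested on 1 probe each. Those of Trmt10a, Thoc6 and Lrrc51 did so too, since these genes, like Polk and Smim11, have only 1 probe and no second reading. Probe sequences were not used, and which transcript forms the probes read was not tested.

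**Figure D3:**
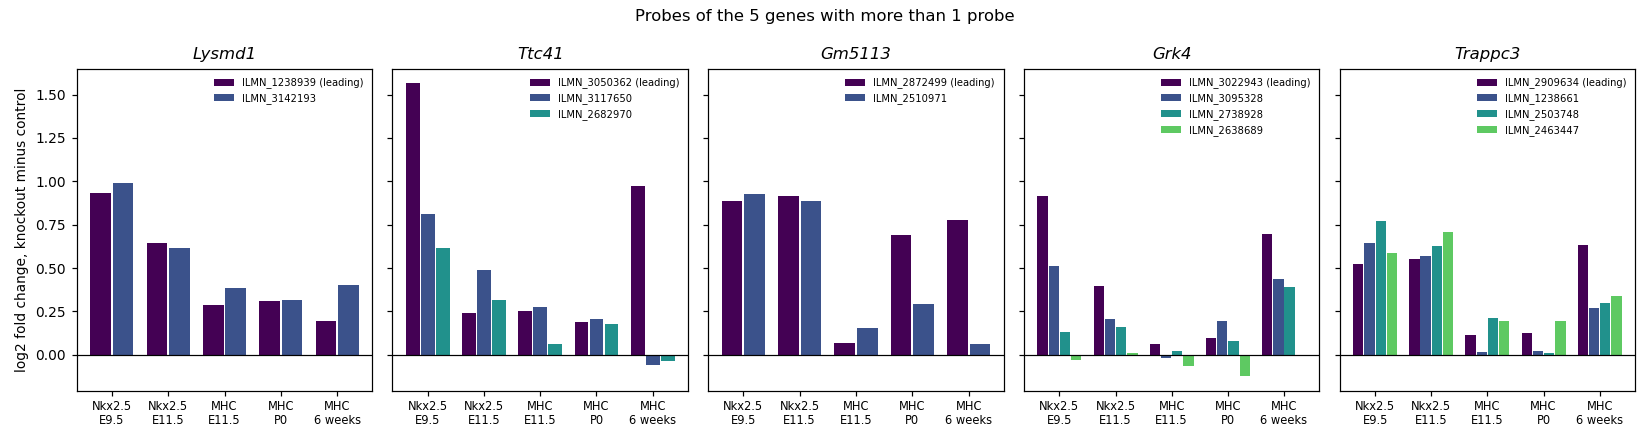
Log2 fold change (knockout minus control) of every probe of the 5 genes with more than 1 probe, by comparison; bars are probes, and the darkest bar is the leading probe. For Ttc41 at 6 weeks the leading probe stands at 0.97 and the others at -0.06 and -0.04, while for Lysmd1 both probes agree in the embryo.

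Within a comparison the knockout hearts differed in how much Thap11 was left, and the 10 genes can be set beside it. The 6-week knockout with 20.0% of control Thap11 had the higher intensity for 8 of the 10 genes, and the median of the genes over control was 0.88 there and 0.70 in the array with 53.4%. At E9.5 the array with 53.8% had the higher intensity for 9 of 10 (median 0.77, beside 0.65 in the array with 86.4%). Under MHC::Cre at E11.5 the array with 59.3% had it for 8 of 10 (0.24 beside 0.10). The order did not hold elsewhere. At P0 the array with less Thap11 was the higher for 5 of 10, and its median was the lower (0.29 beside 0.47). Of the 3 Nkx2.5 knockouts at E11.5, the one with the least Thap11 was the highest for 4 of 10. At 6 weeks Xist read 58.5 in the knockout with 20.0% of control Thap11 and 689 in the one with 53.4%, so sex and Thap11 level cannot be told apart there. The E9.5 knockout pools differed too, with Xist at 537 in the one with 53.8% and 1300 in the one with 86.4%. At P0 it read 72.1 in the knockout with 71.6% and 348 in the one with 78.8%. The part of sex in these orders was not tested. The share of all genes that were higher in the same array was not counted. These are 11 arrays in 5 comparisons, and no test was made.

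**Figure D4:**
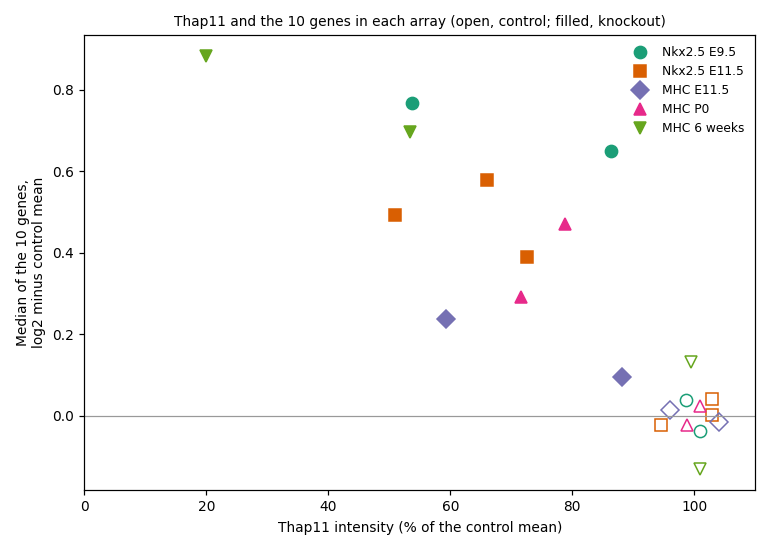
Median log2 intensity of the 10 genes over the control mean (vertical axis) against Thap11 intensity as a percentage of the control mean (horizontal axis), in all 22 arrays; open symbols are controls, filled symbols knockouts, and shapes the comparisons. All knockouts lie above 0, from 0.10 to 0.88, with Thap11 at 20.0% to 88.2%.

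Levels of the 10 genes in the control hearts were read after quantile normalization over all arrays, as log2 values, since the comparisons had been normalized separately. They differ in driver and age at once and are described only. Trmt10a was highest in the youngest hearts, at 10.05 ± 0.16 (SD, n = 2) at E9.5, 9.79 ± 0.17 (n = 3) and 9.65 ± 0.12 (n = 2) at E11.5 under Nkx2.5::Cre and MHC::Cre, 8.58 ± 0.03 at P0 and 8.11 ± 0.63 at 6 weeks (n = 2 each). The 2 groups of E11.5 overlapped with each other, E9.5 lay above them and 6 weeks below P0 by little between the nearest arrays (9.94 against 9.92, and 8.55 against 8.56), and the step from E11.5 to P0 was larger than the spread. Thoc6 was at 10.81 ± 0.10 at E9.5 and between 9.65 and 10.17 later, with overlapping arrays between P0 and 6 weeks. Smim11 ran the other way, from 11.04 ± 0.23 at E9.5 to 12.34 ± 0.10 at 6 weeks, with neighbouring groups overlapping up to P0. Lrrc51 was lowest at P0 (7.11 ± 0.14) and highest at 6 weeks (9.15 ± 0.07), as was Gm5113 (6.90 ± 0.07 and 8.44 ± 0.08). Trappc3 lay within 11.06 and 11.61, Lysmd1 within 9.23 and 9.56, Polk within 7.55 and 8.10, Grk4 within 6.29 and 7.03 and Ttc41 within 6.34 and 6.85, taking the means of the 5 control groups.

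The 10 genes were compared with the nearest protein-coding genes on either side, which did not enter the choice. Of the 20 neighbours 19 had a probe, and 15 or 16 were tested in each comparison. The limma fit called 0 of them in any comparison. In the order E9.5 and E11.5 with Nkx2.5::Cre, then E11.5, P0 and 6 weeks with MHC::Cre, it called 0.495%, 0.49%, 0.0084%, 0% and 1.77% of all genes in either direction. Taking an unadjusted p under 0.05, 0, 2, 0, 1 and 2 neighbours passed, beside 4.75%, 8.5%, 4.39%, 4.21% and 10.6% of all genes. After adjustment, 0 neighbours passed the methods' t-test in each comparison. Scnm1, a splicing factor whose span lies 38 bases from that of Lysmd1, read 953 on average in both the controls and the knockouts at E9.5 (log2 0.00 ± 0.13 SE), where Lysmd1 was 1.91-fold higher. Mttp, the lipid transfer protein whose start lies 30 bases from that of Trmt10a, gave 0.12 ± 0.15 SE at 6 weeks (adjusted p = 0.96), beside 1.99 for Trmt10a. Cert1, a ceramide transporter next to Polk, lay between -0.03 and 0.15 in all 5 comparisons. Nop14, a ribosome biogenesis factor whose promoter window overlaps that of Grk4, gave 0.12 ± 0.14 SE at E9.5 (adjusted p = 1), beside 0.91 for Grk4. At 6 weeks 2 neighbours had both knockouts above both controls and log2 fold changes larger than those of the gene beside them. Col8a2, a collagen gene, gave 1.12 ± 0.36 SE (adjusted p = 0.15) beside 0.64 for Trappc3, and Htt, the huntingtin gene, gave 0.78 ± 0.28 SE (adjusted p = 0.23) beside 0.69 for Grk4. Counted by array separation alone, 2, 1, 2, 4 and 4 of the 15 or 16 tested neighbours lay above all controls in the 5 comparisons, in the order above. The shares of all genes were 15.9%, 4.14%, 14.7%, 14.6% and 19.6%. A p that misses the threshold does not show that these genes were unchanged.

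The replicate numbers were taken to pair the arrays of the E11.5 Nkx2.5 comparison, although the labels do not say what the numbers mark. This was chosen from the likeness of the same arrays, so p-values with the block may be too low. A fit blocked on them called 2 of the 15 neighbours tested, both lower, beside 489 of 11827 genes in either direction. Cox7a1, a subunit of cytochrome c oxidase that lies 1847 bases from Gm5113, fell from a mean of 5080 to 3120 (log2 -0.71, adjusted p = 0.0017 with the block and 0.15 without it). Hcfc1r1, named as a regulator of Hcf-1, overlaps the end of Thoc6 where its transcription starts, and fell from 114 to 79.0 (log2 -0.55, adjusted p = 0.021 with the block and 0.29 without it). Both moved opposite to the gene beside them. Hcfc1r1 knockouts also lay below controls at P0 (log2 -0.18 ± 0.19 SE) and at 6 weeks (-0.43 ± 0.25 SE), without passing the test. So did those of Cox7a1 in MHC hearts at E11.5 (-0.21 ± 0.15 SE) and at 6 weeks (-0.51 ± 0.28 SE). At 6 weeks 17.9% of all tested genes had both knockouts below both controls, and this share was not counted for the other comparisons.

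**Figure D5:**
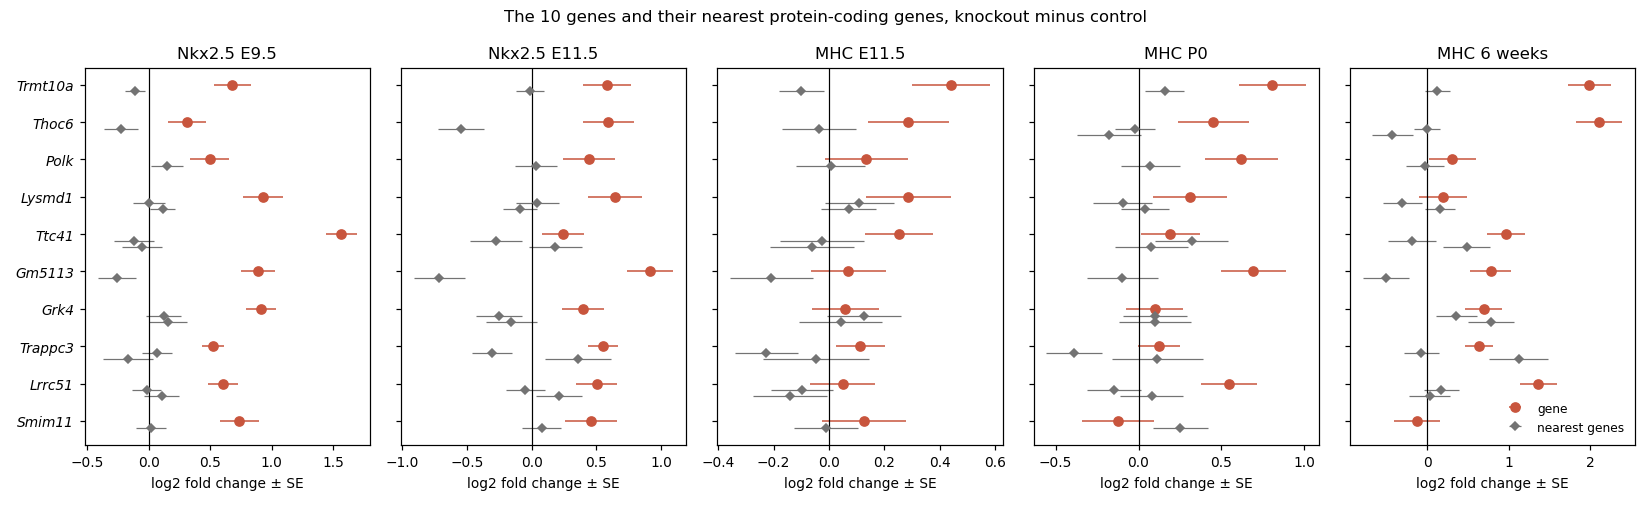
Log2 fold change ± SE (limma, knockout minus control) of the 10 genes (red circles) and of their nearest protein-coding genes that were tested (grey diamonds), in the 5 comparisons; horizontal scales differ between panels. At E9.5 the 10 genes lie between 0.31 and 1.57, and the neighbours lie around 0.

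Genes of the same class, complex or process as some of the 10 genes were read from 6 lists of 195 genes in all, 150 to 156 of them tested in a comparison. The lists were written from general knowledge, and a listed gene need not work with the gene it is listed for. The lists were tRNA modification enzymes, mRNA export factors, translesion synthesis, the TRAPP complex, GPCR kinases with arrestins and receptors, and LysM domain proteins. The limma fit called 0 in either direction at E9.5, and 0 with MHC::Cre at E11.5 and P0. An unadjusted p under 0.05 was found there for 4, 3 and 3 higher and 4, 7 and 0 lower genes. Adjusted calls were 0 in all by the methods' t-test and 1, 0 and 0 with the replicate block, which called 79, 11 and 1 of all genes tested. For Nkx2.5::Cre at E11.5 the fit called 0 higher and 1 lower of 150, and 1 higher and 4 lower with the block. Of all 11827 genes the block called 254 higher and 235 lower there. For adult MHC hearts it called 1 higher and 1 lower of 155. The median log2 fold change over the lists lay between -0.04 and 0.05.

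The gene called lower was Pus3 both times, a pseudouridine synthase of transfer RNA that was listed for Trmt10a by class only. Pus3 fell from 514 ± 88.3 (SD, n = 3) to 258 ± 22.8 in Nkx2.5 hearts at E11.5 (log2 -0.98 ± 0.19 SE, adjusted p = 0.015, limma). At 6 weeks under MHC::Cre it fell from 438 ± 58.4 (n = 2) to 177 ± 14.8 (log2 -1.30 ± 0.27 SE, adjusted p = 0.013). In this fit it was the only one called of the 59 tRNA modification enzymes tested in each of these comparisons. Equal array weights also called 3 of them higher at 6 weeks, namely Trmt61a, Trit1 and Mettl1. It kept its call under 8 of 14 alternatives at E11.5 and 7 of 12 at 6 weeks. The one gene called higher was Zranb3, a helicase that remodels stalled replication forks, at 6 weeks, from 232 ± 2.87 (n = 2) to 476 ± 64.6 (log2 1.03 ± 0.20 SE, adjusted p = 0.0098). With the replicate block at E11.5, the mRNA export factors Fyttd1 (log2 -0.42, adjusted p = 0.029) and Ncbp2 (-0.48, 0.050) and the fork remodeler Smarcal1 (-0.53, 0.035) were called lower and Arrb1, beta-arrestin 1, higher (0.57, 0.022). The list for Trappc3 held other TRAPP subunits together with Tbc1d14 and the vesicle GTPases Rab1a, Rab1b, Rab11a and Rab18. The limma fit called 0 of its 16 to 18 tested genes in any comparison, with 0 to 2 at an unadjusted p under 0.05, and 0 passed the methods' t-test once adjusted. By array separation 0, 0, 2, 1 and 1 of them lay above all controls in the 5 comparisons, in the same order, beside 15.9%, 4.14%, 14.7%, 14.6% and 19.6% of all genes.

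The 10 genes were not alike in pattern over the 22 arrays. On log2 values minus the control mean of each comparison, the 45 pairs of genes had correlations (Pearson's r) from -0.05 to 0.95 with a median of 0.63. These describe 22 arrays that share the knockout and control grouping and the normalization, and no test was made. Trmt10a, Thoc6 and Lrrc51 were most alike (r = 0.95 for Trmt10a with Thoc6, 0.95 with Lrrc51 and 0.90 for Thoc6 with Lrrc51), all 3 with their highest values in adult hearts. Gm5113 and Trappc3 (0.90) and Ttc41 and Grk4 (0.88) were the next pairs. Among the 9896 genes tested in all 5 comparisons, the nearest genes outside the 10 were Trmt61a for Trmt10a (0.92), Iah1 (0.93) and Htra2 (0.93) for Thoc6, Htra2 for Lrrc51 (0.93) and Ubxn8 for Lysmd1 (0.94). Hbp1 (0.83) and Nosip (0.79) followed for Lysmd1. For Gm5113 they were Fcsk (0.89) and Alg14 (0.89), and for Trappc3 Fcsk (0.89) and Tmem43 (0.88). For Ttc41 they were Fntb (0.81) and Tmem43 (0.81), and for Grk4 Tmem43 (0.83) and Tsacc (0.81). Polk had Zfp119a (0.84), Swt1 (0.75) and Pnpla7 (0.74), and Smim11 had Eif2b4 (0.86), Nup54 (0.84) and Zfp637 (0.79).

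Summed intensities of cell type markers differed between the groups in some comparisons. For adult MHC hearts the summed intensity of 10 fibroblast and smooth muscle markers was 29800 to 36700 in controls and 59800 to 77800 in knockouts, and 1 of the 9 tested, Acta2 (smooth muscle actin), was called higher (15000 to 47300, log2 1.62 ± 0.19 SE, adjusted p = 0.00016). The 9 cardiomyocyte markers summed to 197000 to 225000 in controls and 240000 to 252000 in knockouts there. Under MHC::Cre at E11.5 the 9 erythroid markers summed to 253000 to 256000 in controls and 274000 to 296000 in knockouts, the cardiomyocyte markers to 195000 to 199000 and 204000 to 212000, and the 8 endothelial markers to 13600 to 13700 and 12200 to 12400. At P0 the 4 epicardial markers summed to 4190 to 4680 in controls and 5330 to 5660 in knockouts, the 8 endothelial markers to 16700 to 16800 and 17400 to 19400, and the 10 fibroblast and smooth muscle markers to 91900 to 92400 and 95300 to 95900. Sums follow the brightest probes, and the tested markers of a list did not always move alike. In MHC hearts at E11.5, log2 fold changes exceeded 0 for 7 of 8 erythroid, 5 of 9 cardiomyocyte and 1 of 8 endothelial markers. At P0 they did for 3 of 4 epicardial, 7 of 7 endothelial and 5 of 10 fibroblast and smooth muscle markers. At 6 weeks they did for 9 of 9 fibroblast and smooth muscle and 6 of 9 cardiomyocyte markers. At E9.5 only the erythroid sums did not overlap (187000 to 189000 in controls and 186000 in both knockouts), and in the E11.5 Nkx2.5 comparison the ranges of all 6 marker lists did. The limma fit with the replicate block, however, called 489 of 11827 genes there. Among them were 3 of the 8 erythroid markers tested, all higher. These were Alas2 of heme synthesis (log2 1.51, adjusted p = 0.0025, and 0.43 without the block), the membrane protein Slc4a1 (1.00, 0.0025 and 0.59) and the transcription factor Klf1 (1.27, 0.0014 and 0.42). The epicardial Tbx18 was called lower (-1.15, 0.044 and 0.32). Of the 3 epicardial markers tested there, however, 2 lay above 0, Upk3b (log2 0.39) and Aldh1a2 (0.50), and these were not called. No marker was listed at 0, as the lowest probe of an array read 31.1 to 57.1, and the part of these cells in the values of the 10 genes was not tested.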

How the data were processed

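The deposited intensities are linear and had been cubic spline normalized by the authors with GenePattern. Their medians were alike within a comparison and ran from 58.2 to 108 between comparisons, so each comparison was taken to have been normalized separately. Another table of raw values was left out, as none of its 22 columns could be matched to a label. The platform annotation gave 1 gene for 34885 probes, several for 18 and none for 10378. Intensities were taken to log2 with no pseudocount, and a gene was tested where its leading probe lay above the median probe. The limma model (3.58.1, with statmod 1.5.0, R 4.3.3) had 10 group means, 12 residual degrees of freedom, array weights per comparison (0.533 to 1.90) and an intensity trend, with Benjamini-Hochberg adjustment within a comparison and a threshold of 0.05. It gave the SEs of the 10 genes and the tests of all other genes. It was tested on simulated data.

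The 10 genes, the lists and the tests were chosen with earlier results of these data known. The text names all 10 genes, the called neighbours and list genes, the 3 genes most alike to each, Thap11 and moving markers. Genes called only under the replicate block, the neighbours beside Lysmd1, Trmt10a, Polk, Grk4 and Trappc3, and Hcfc1r1 were named after their values were seen.

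The number of arrays limits precision, with replicates of a group differing by an SD of 0.13 to 0.343 per array on the log2 scale. Each E9.5 array was a pool of its own. For the other ages the sources do not say whether arrays came from separate litters, so p-values measure the spread between these arrays. In Nkx2.5 hearts at E11.5 same-numbered control and knockout arrays deviated together (r = 0.438, 0.613 and 0.52), so the numbers were taken to pair them. The labels do not state such a pairing, and pair 2 joins a control with Xist at 1020 to a knockout at 40.1. Since the pairing was taken from the same values that the block was fitted to, p-values with the block may be too low. The other comparisons have only 2 pairs. Promoter windows were searched with Python 3.

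The authors' chromatin, protein and histology data were not analysed here.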

Additional observations from a re-analysis of the deposited data

Results flagged for a closer look

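Smim11 stood out because its knockouts lay above all controls in both Nkx2.5 comparisons (log2 0.74 at E9.5 and 0.46 at E11.5) and below both controls in MHC hearts at 6 weeks (log2 -0.126, with 5284 and 4726 in controls and 4642 and 4516 in knockouts). Every array of one comparison moved one way and every array of the other the opposite way. The difference between the comparisons was not tested. Its adult value was smaller than its SE of 0.29, and 17.9% of all tested genes had both knockouts below both controls at 6 weeks.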

How the results depend on the processing

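Under median scaling, quantile normalization, a background offset and each array left out, 717 log2 fold changes of the 20 probes moved by less than the spread between replicates and 23 by more. The median of the 10 genes ranged over 0.621 to 0.842 with an array left out in Nkx2.5 hearts at E9.5 (highest without control 2), 0.473 to 0.599 at E11.5, 0.096 to 0.237 in MHC hearts at E11.5 (highest without knockout 2), 0.235 to 0.471 at P0 (lowest without control 2) and 0.681 to 0.966 at 6 weeks (highest without control 2), where the mean of the gene's probes gave 0.381.

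The number of genes called by limma, on which the tests of neighbours and lists rest, moved strongly, and the cause was not tested. In Nkx2.5 hearts at E9.5 it was 58, and 14 with the comparison fitted alone, 2 with equal array weights, 37 without the filter on dim probes, 0 by the methods' t-test and 1 to 115 with an array left out (25 without control 1, 1 without control 2, 115 without knockout 1). At E11.5 it was 58, and 14 alone, 124 with equal weights, 489 with the replicate block (254 higher, 235 lower), 1 by the t-test and 20 to 235 with an array left out (235 without knockout 3, and 24, 20, 31 and 37 without control 1, control 3, knockout 1 and knockout 2). In MHC hearts at E11.5 it was 1, and 15 alone, 0 with equal weights, 4 with the mean of probes, 11 with the block, 0 by the t-test and 0 to 5 with an array left out. At P0 it was 0, and 2 alone, 1 with the block and 0 to 10 with an array left out. At 6 weeks it was 207, and 0 alone, 602 with equal weights, 527 with the block, 1 by the t-test and 9 to 752 with an array left out (9 without control 1, 66 without knockout 1, 752 without knockout 2). Pus3 kept its call under 8 of 14 alternatives at E11.5 and 7 of 12 at 6 weeks (adjusted p 0.0015 to 0.46 and 0.00071 to 0.90), Zranb3 under 7 of 12 (0.00058 to 0.90) and Thap11 at 6 weeks under 5 of 12 (0.00059 to 0.90), with directions kept throughout. Under equal weights the neighbours Htt and Col8a2 were called higher at 6 weeks, and Col8a2 also with the block, as were the cardiomyocyte markers Myh7 and Nppa. Equal weights also called the tRNA modification enzymes Trmt61a, Trit1 and Mettl1 higher at 6 weeks, with Pus3 lower, among 602 genes in all.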
